A study of Mus musculus with 20 samples.

Results

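Bone morphogenetic proteins (BMPs) are secreted ligands that bind paired type I and type II receptor kinases, which phosphorylate Smad transcription factors. The Id genes are among the direct transcriptional targets of these Smads, and the Id proteins hold basic helix-loop-helix (bHLH) factors in dimers that cannot bind DNA. In glial progenitors, BMP signalling and Id proteins are known for holding back oligodendrocyte differentiation and for favouring the astrocyte fate, and noggin, a secreted protein that traps BMPs, is known for the opposite action. The genes described here were 3 ligands (Bmp2, Bmp4 and Bmp7), 2 type I receptors (Bmpr1a and Bmpr1b), the antagonist Nog and the 4 Id genes (Id1, Id2, Id3 and Id4). They were chosen by name, and all 10 were measured among 18193 genes represented on the arrays.

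Total RNA of mouse brain cell lines, described by the submitters as glial progenitors in the series title, was hybridised to 20 single-colour oligonucleotide arrays, 5 in each of 4 groups. The groups were transduced embryonic progenitors, in which transduction is labelled a genetic modification, control embryonic progenitors, transformed postnatal progenitors and control postnatal progenitors. The labels used here do not name the introduced sequence, the transforming agent, the brain region, the strain or the exact age. Whether the arrays of a group represent separate cultures is not stated either, and the p-values therefore reflect array-to-array spread that may be technical. Age cannot be told apart here from any feature of derivation or culture that came with it, and the modification may not be the same at both ages.

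All 7 listed progenitor markers, among them Olig2, Sox2 and Pdgfra, lay above background on every array. Their summed signal was lower in transduced embryonic cells (212038 to 222103) than in embryonic controls (366836 to 420768), and Pdgfra, the receptor that marks oligodendrocyte precursors, averaged 596 ± 198 in transduced cells and 7629 ± 1239 in embryonic controls (SD, n = 5 each). Of the microglial, endothelial and fibroblast markers (16 genes measured), between 0 and 3 genes of a list exceeded background throughout a group. The summed signal of 5 astrocyte markers was 6913 to 7299 in transduced and 17517 to 22065 in control embryonic cells, and 36442 to 39095 in transformed and 12039 to 51240 in control postnatal cells. The embryonic sum was mostly Slc1a3, which averaged 6088 in transduced and 18125 in control cells. Aldh1l1 was lower too (260 against 1015). Aqp4 and S100b were dim in both groups (224 and 267, against 274 and 243). Gfap was dim too. It averaged 274 ± 141 in transduced cells (above background on 4 arrays) and 140 ± 45.6 in controls (on 0 arrays). The postnatal astrocyte markers were split. S100b averaged 26636 ± 1255 in transformed cells and 10169 ± 10576 in controls (SD, n = 5 each). Gfap, Aqp4 and Aldh1l1 averaged 279 ± 162, 134 ± 79.8 and 223 ± 13.5 in transformed cells. In controls these 3 genes averaged 5435 ± 9237, 2273 ± 1831 and 2752 ± 1293. The control SD exceeded the mean for S100b and Gfap, so these 2 means do not describe every control array. Slc1a3 averaged 10679 ± 1217 in transformed cells and 12239 ± 4708 in controls. The summed signal of 5 neuronal markers was 2427 to 2894 in transduced and 7429 to 8079 in control embryonic cells, and 10352 to 11488 in transformed and 4768 to 7353 in control postnatal cells, without overlap at either age. The postnatal neuronal markers were split too, with Syt1 and Tubb3 higher on average in transformed cells (5859 and 4163) than in controls (1567 and 1247), and Rbfox3 and Snap25 lower (195 and 426, against 1419 and 1379). The sum of 4 myelinating oligodendrocyte markers was 10953 to 14776 in transduced and 23904 to 27950 in control embryonic cells. Most of this sum was Cnp, which averaged 11473 in transduced and 24609 in control cells, while Mbp was level (827 and 811). Mog was below background on all of these arrays, and Mag was above it on 1 transduced array and 0 control arrays. The part of these marker shifts in the changes below was not tested. Background on an array was the level of its brightest bacterial control probe sets (95th percentile of 27 probe sets, 107 to 221 signal units). Postnatal control arrays 4 and 5 stood apart from the other 3 arrays of their group. The mean log2 signal of 12 cell cycle genes was 11.92 and 11.79 on these arrays against 14.38 to 14.45 on arrays 1 to 3, and the summed myelin signal was 95979 and 108275 against 36549 to 46012. Fitted changes that rest on the postnatal controls are therefore also given without these 2 arrays where that ended or made a call or moved the value by over 1.5 times, a step chosen with earlier results of these data known.

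A probe set's signal depends on its own sequence as well as on RNA amount, so levels are compared between groups of arrays within a gene, not between genes. Changes are differences of log2(signal + 16) with the standard error of a linear model over all 20 arrays (limma), and p-values were adjusted by the Benjamini-Hochberg method over the whole table. Calls required an adjusted p below 0.05 together with a difference of at least 2-fold. In these bulk samples, fewer cells that express a gene and less RNA per cell cannot be told apart.

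**Figure D1:**
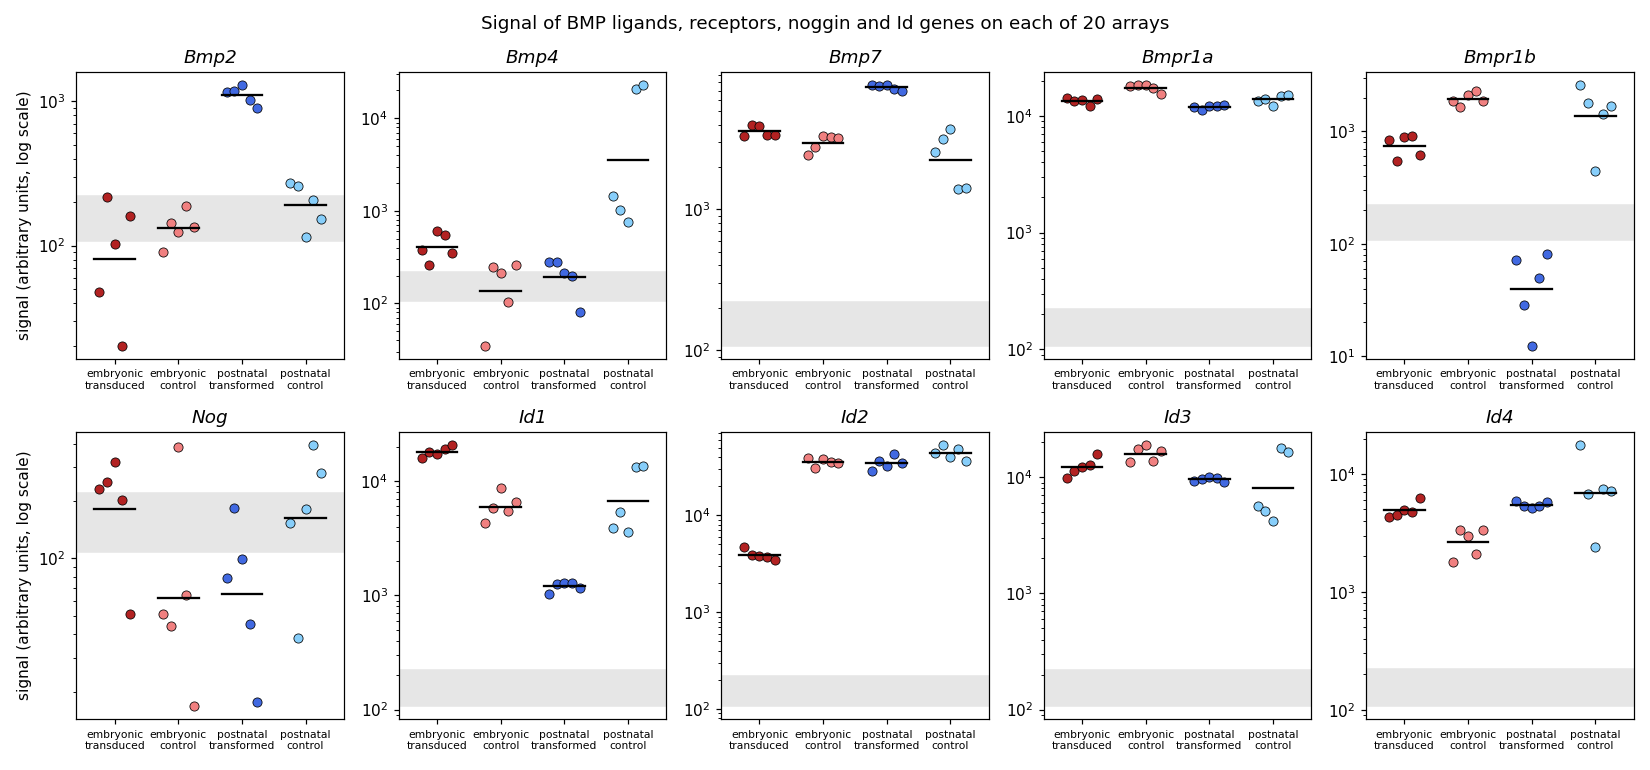
Signal of each of the 10 genes on each of the 20 arrays, on a log scale in arbitrary units. Points are arrays, horizontal bars are geometric means of 5 arrays, and the grey band is the range of the background level over the arrays (107 to 221). Id2 stands low in transduced embryonic cells, Id1 stands high in the same cells and low in transformed postnatal cells, and Bmpr1b falls below the band in transformed postnatal cells.

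The ligands changed in the transformed postnatal cells, and they did so in opposite directions. Bmp7 and Bmp2 were higher than in postnatal controls and Bmp4 was lower. No ligand was called in transduced embryonic cells.

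Bmp7, a ligand of the subgroup named after the osteogenic proteins, had signals of 7675, 7491, 7630, 7125 and 6957 in transformed postnatal cells, against 2542, 3145, 3725, 1390 and 1430 in postnatal controls. It rose by 1.70 ± 0.20 on the log2 scale, a 3.24-fold difference (limma adjusted p = 2.81e-07), and the lowest transformed array exceeded the highest control array. Its other 2 probe sets gave 1.95 ± 0.20 and 1.99 ± 0.21. Without control arrays 4 and 5, the dimmest for Bmp7, the rise was 1.25 ± 0.11 (adjusted p = 3.24e-09). In the embryonic cells Bmp7 had 3299, 4005, 3904, 3402 and 3372 after transduction, against 2427, 2766, 3302, 3288 and 3233 in controls, and the groups overlapped (0.26 ± 0.20, adjusted p = 0.333). The transformed postnatal cells had the highest level of the 4 groups, and the other 3 groups overlapped with one another.

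Bmp2, a close relative of Bmp4 that uses the same type I receptors, had signals of 1159, 1180, 1303, 1020 and 897 in transformed postnatal cells. In postnatal controls it had 272, 258, 114, 207 and 153, and only 3 of these 5 arrays were above background. The groups did not overlap. The means were 1112 ± 156 and 201 ± 67.5 (SD, n = 5 each), and the fitted rise of 2.43 ± 0.40 (adjusted p = 2.97e-05) depends on the offset because the controls were dim. In the embryonic cells Bmp2 was at or near background, with a range of 20.2 to 217 after transduction and 89.8 to 187 in controls, above background on 1 and on 0 of 5 arrays. Transformed postnatal cells were therefore the only group of the 4 with Bmp2 above background on all 5 arrays.

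Bmp4, a ligand made by progenitors and glia of the developing brain, moved the other way. It had signals of 280, 280, 214, 196 and 81.2 in transformed postnatal cells, against 1442, 1020, 752, 20760 and 22945 in postnatal controls. Every transformed array lay below every control array, 4 of the 5 were still above background, and the change was -4.07 ± 0.78 (adjusted p = 0.000167). Part of this size came from control arrays 4 and 5. Without them the change was -2.32 ± 0.50 (adjusted p = 0.00053), still called. In transduced embryonic cells Bmp4 had 378, 261, 609, 553 and 351, against 34.9, 250, 211, 103 and 261 in embryonic controls, of which 3 were above background. The transduced arrays all lay higher, by less than 1 signal unit between the nearest pair, and the change of 1.43 ± 0.78 was not called (adjusted p = 0.165). With postnatal control arrays 4 and 5 left out of the shared estimate of the spread, the same 1.43 had an adjusted p of 0.00963 and was called.

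Bmp4 and Bmpr1a lie on chromosome 14, and this chromosome as a whole read low in the transformed postnatal cells. Over 354 genes of chromosome 14 with a mean signal above 500, the median change in the postnatal response was -0.86, with 139 genes (39.3%) called lower. Over the other autosomes the median was -0.03 and 7.31% of genes were called lower. The chromosome's median against the postnatal controls was between -0.85 and -0.83 on each of the 5 transformed arrays. Its median in the embryonic response was 0.05. The Bmp4 change was larger than the chromosome's median both with and without control arrays 4 and 5, and the chromosome's part in it was not tested.

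The 250 bases before the Bmp4 start site are shown because Bmp4 had the largest range over the arrays among the ligands. The sequence is from RefSeq (GRCm38.p6, chr14:46390670-46390919, minus strand, written 5′ to 3′ along the gene), and capitals mark a CACGTG E-box, the only match among 4 motifs searched.
Bmp4: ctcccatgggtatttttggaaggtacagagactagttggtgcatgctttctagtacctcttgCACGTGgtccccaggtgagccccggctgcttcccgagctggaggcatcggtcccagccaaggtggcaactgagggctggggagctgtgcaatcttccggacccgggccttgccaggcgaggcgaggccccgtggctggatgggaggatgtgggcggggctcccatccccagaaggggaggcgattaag

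The receptors differed from each other. Bmpr1b fell in both responses, and Bmpr1a, the type I receptor found in most cells, changed by less than 2-fold in both. Bmpr1b had signals of 71.4, 28.5, 12.4, 49.99 and 81.4 in transformed postnatal cells, all below background, against 2593, 1800, 441, 1427 and 1682 in postnatal controls. The difference was at least 8.53-fold, with a fitted change of -4.57 ± 0.37 (adjusted p = 1.32e-09). In transduced embryonic cells Bmpr1b had 845, 543, 893, 902 and 615, against 1871, 1653, 2096, 2312 and 1847 in embryonic controls, a 2.58-fold fall without overlap (-1.37 ± 0.37, adjusted p = 0.0051). Its other 2 probe sets were dimmer and also lower in both responses, with changes of -2.68 ± 0.44 and -2.94 ± 0.41 in the postnatal cells. In the embryonic cells they changed by -0.88 ± 0.44 (adjusted p over all probe sets = 0.142) and -1.51 ± 0.41 (adjusted p = 0.00617).

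Bmpr1a ranged from 12047 to 14091 in transduced embryonic cells and from 15322 to 18388 in embryonic controls (-0.38 ± 0.06, adjusted p = 4.09e-05), a 1.30-fold difference without overlap. It ranged from 11196 to 12445 in transformed postnatal cells and from 12251 to 14925 in postnatal controls (-0.21 ± 0.06, adjusted p = 0.00913), and without control arrays 4 and 5 the change was -0.14 ± 0.07 (adjusted p = 0.0859). The sign of the postnatal value depends on the probe set. Of the other 5, 3 bright ones gave 0.14 ± 0.08, 0.17 ± 0.12 and 0.26 ± 0.08, another gave -0.41 ± 0.16, and the dimmest gave 1.18 ± 0.49. The mean over all 6 probe sets was 0.19 (adjusted p = 0.138). All of these values with all arrays lay above the median of chromosome 14.

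Nog, which encodes noggin, was dim in every group and its groups overlapped in every comparison. It ranged from 50.9 to 322 in transduced embryonic cells (above background on 4 of 5 arrays) and from 16.8 to 384 in embryonic controls (1 of 5). In transformed postnatal cells it ranged from 17.7 to 184 (1 of 5), and in postnatal controls from 38.0 to 392 (4 of 5). The embryonic change was 1.26 ± 0.65 (adjusted p = 0.141) and the postnatal change was -1.12 ± 0.65 (adjusted p = 0.189). Postnatal control arrays 4 and 5 were the brightest of their group for Nog, with 392 and 279 against 38.0 to 181 on the other 3, and without them the postnatal change was -0.51 ± 0.72 (adjusted p = 0.641). Leaving out embryonic control array 3, the brightest of its group, gave an embryonic change of 1.82 that was called (adjusted p = 0.0198).

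The Id genes did not move as a group. Id1 rose in transduced embryonic cells and fell in transformed postnatal cells, Id2 fell in the embryonic cells, and Id3 and Id4 were not called in either response. Id2 and Id4 are known as the members that restrain oligodendrocyte precursors, and Id1 and Id3 as the members most often coexpressed.

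Id1 had signals of 15871, 17889, 17115, 18933 and 20636 in transduced embryonic cells, against 4263, 5763, 8730, 5514 and 6512 in embryonic controls. The groups were far apart, and the change was 1.59 ± 0.29, a 3.0-fold rise (adjusted p = 0.000111). In transformed postnatal cells Id1 had 1028, 1250, 1284, 1271 and 1162, against 3924, 5341, 3565, 13398 and 13553 in postnatal controls. Each transformed array lay below each control array, and Id1 fell by 2.47 ± 0.29, or 5.55-fold (adjusted p = 2.93e-07). Without control arrays 4 and 5 it fell by 1.80 ± 0.16 (adjusted p = 2.13e-09). In order of level, transduced embryonic cells stood highest and transformed postnatal cells lowest. The 2 control groups lay between them and overlapped.

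Id2 had signals of 4657, 3844, 3840, 3671 and 3454 in transduced embryonic cells, against 39325, 30599, 37925, 35823 and 34682 in embryonic controls. This was a 9.14-fold fall (-3.19 ± 0.11, adjusted p = 7.73e-16), the smallest adjusted p of the 10 genes in either response. In transformed postnatal cells Id2 had 28572, 36420, 31904, 42608 and 34499, against 43523, 52896, 40066, 48539 and 36423 in postnatal controls, with overlap and a change of -0.35 ± 0.11 that stayed under 2-fold (adjusted p = 0.0119). A second probe set gave -3.49 ± 0.13 and -0.60 ± 0.13 for the embryonic and the postnatal response. The third, much dimmer, gave -0.79 ± 0.18 and -1.48 ± 0.18, so it placed the larger change in the postnatal cells. On the representing probe set Id2 was low in 1 group of the 4, and the other 3 groups overlapped. On the second, transduced cells were again lowest, but postnatal controls (20614 to 28658) lay above embryonic controls (15635 to 17935) and transformed cells (14284 to 18495). On the third, postnatal controls (1543 to 2102) lay above the other 3 groups, and transduced (321 to 535) and transformed cells (507 to 811) overlapped.

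Id3 had signals of 9800, 11284, 12273, 12679 and 15680 in transduced embryonic cells, against 13626, 17522, 18860, 13663 and 16688 in embryonic controls (-0.39 ± 0.29, adjusted p = 0.343). In transformed postnatal cells it had 9308, 9742, 9986, 9835 and 9168, against 5611, 5154, 4162, 17874 and 16462 in postnatal controls (0.24 ± 0.29, adjusted p = 0.575). The transformed arrays fell between control arrays 1 to 3 and control arrays 4 and 5. Without the last 2, Id3 was higher in transformed cells by 0.96 ± 0.12 (adjusted p = 8.1e-07), just short of 2-fold. Leaving out control array 3 alone brought the change to -0.00069.

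Id4 had signals of 4345, 4498, 4969, 4772 and 6303 in transduced embryonic cells, against 1797, 3366, 2964, 2086 and 3373 in embryonic controls. The groups did not overlap, and the change of 0.90 ± 0.31 (adjusted p = 0.0251) was 1.87-fold and so not called. In transformed postnatal cells Id4 had 5847, 5363, 5111, 5323 and 5746, against 17575, 6713, 2414, 7490 and 7241 in postnatal controls (-0.33 ± 0.31, adjusted p = 0.453). The 5 transformed arrays were tight, and the controls enclosed them. The other 2 probe sets gave postnatal changes of -0.72 ± 0.29 and -0.80 ± 0.30. Without control array 1 the change was 0.0064.

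Sequences before the start sites of Id2, Id3 and Id4 are shown because these promoters respond to BMP-activated Smads in other cells, and because Id2 was called in the embryonic response while Id3 and Id4 were called in neither. They are from RefSeq (GRCm38.p6), each 250 bases and written 5′ to 3′ along the gene, at chr12:25096093-25096342 (minus strand) for Id2, chr4:136143572-136143821 (plus strand) for Id3 and chr13:48260866-48261115 (plus strand) for Id4. Capitals mark matches on either strand to 4 motifs, the GC-rich Smad element GGCGCC, the Smad box CAGAC, the E-box CACGTG and the CCAAT box, and no 2 matches overlap.
Id2: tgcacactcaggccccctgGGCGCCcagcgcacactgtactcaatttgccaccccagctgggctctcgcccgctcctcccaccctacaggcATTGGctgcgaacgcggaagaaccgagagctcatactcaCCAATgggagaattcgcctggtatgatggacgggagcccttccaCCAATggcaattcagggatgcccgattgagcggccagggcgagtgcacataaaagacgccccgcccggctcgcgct
Id3: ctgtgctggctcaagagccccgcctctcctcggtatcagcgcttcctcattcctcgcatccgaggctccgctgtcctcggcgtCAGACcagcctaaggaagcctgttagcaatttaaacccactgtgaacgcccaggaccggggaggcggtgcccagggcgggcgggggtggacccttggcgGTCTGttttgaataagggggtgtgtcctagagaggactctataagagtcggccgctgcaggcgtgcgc
Id4: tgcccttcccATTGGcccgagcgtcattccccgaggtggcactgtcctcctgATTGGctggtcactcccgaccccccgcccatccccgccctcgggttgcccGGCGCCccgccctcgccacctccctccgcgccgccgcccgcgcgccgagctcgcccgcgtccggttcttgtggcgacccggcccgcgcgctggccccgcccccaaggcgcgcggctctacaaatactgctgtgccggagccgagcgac

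The Id2 window held 1 GGCGCC and 3 CCAAT boxes, the Id4 window held 1 GGCGCC and 2 CCAAT boxes, and the Id3 window held 2 CAGAC boxes and no GGCGCC. Among 32851 promoter windows of the same length, 9.59% held GGCGCC, 42.2% CAGAC, 6.02% CACGTG and 33.8% CCAAT. The GC content was 62.8% for Id2, 62.8% for Id3, 75.6% for Id4 and 63.2% for Bmp4, against a median of 52.4% over all windows. A match of letters is a description of the window, not a binding site.

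In the embryonic response 3 of the 10 genes were called, 1 higher (Id1) and 2 lower (Id2 and Bmpr1b), against 14.4% of all 18193 genes. In the postnatal response 5 were called, 2 higher (Bmp2 and Bmp7) and 3 lower (Bmp4, Bmpr1b and Id1), against 16% of all genes. The 2 groups did not overlap for 6 of the 10 genes in the embryonic cells, against 34.8% of all genes, and for 5 of the 10 in the postnatal cells, against 32.2%. The median change of the 10 genes was -0.06 in the embryonic and -0.34 in the postnatal response, against 0.08 and -0.00 over all genes. Without postnatal control arrays 4 and 5, the same 5 genes were called in the postnatal response, against 3002 of all 18193 genes.

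**Figure D2:**
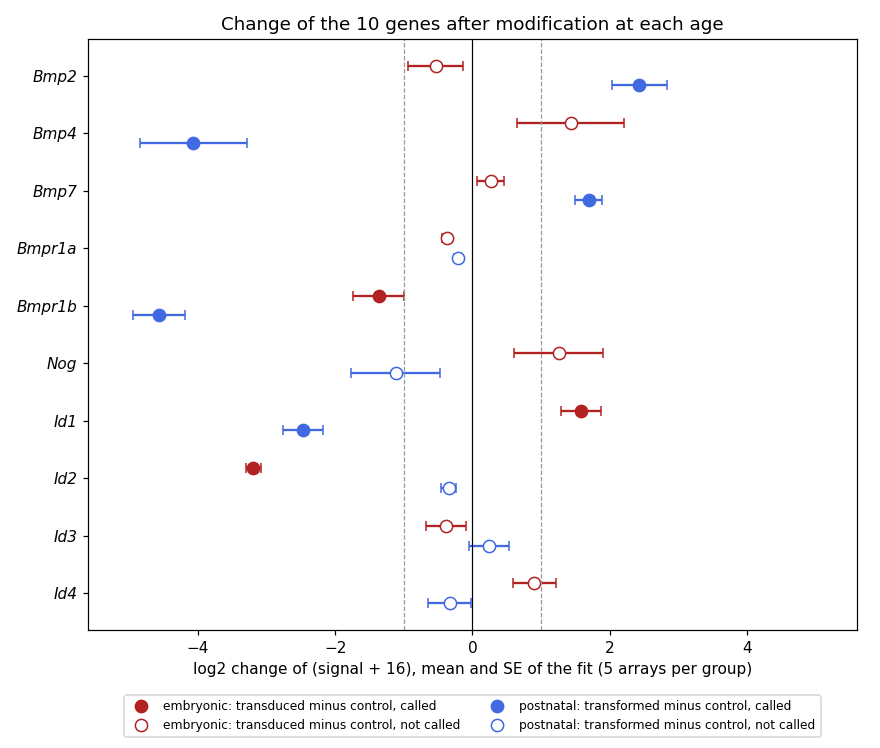
Change of each of the 10 genes in transduced against control embryonic cells (red) and in transformed against control postnatal cells (blue), as log2 change of (signal + 16). Points are fitted means of 5 arrays a group, bars are standard errors, filled points are called, and dashed lines mark a 2-fold change. Id1 lies at 1.59 and -2.47, Id2 at -3.19 and -0.35, and Bmpr1b at -1.37 and -4.57 in the embryonic and the postnatal response.

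The difference between the responses was tested directly, as the postnatal change minus the embryonic change. It was called for 8 of the 10 genes, 3 positive and 5 negative, against 19.1% of all genes. Id1 was the only one of the 10 with called changes of opposite sign, and its difference was -4.06 ± 0.41 (adjusted p = 4.82e-08). For Id2 the difference was 2.84 ± 0.15 (adjusted p = 3.24e-12), although the dimmest of its probe sets gave -0.69 ± 0.25. Bmpr1b fell further in the postnatal cells (-3.20 ± 0.53, adjusted p = 3.66e-05). Its other 2, dimmer probe sets gave smaller differences, -1.79 ± 0.62 (adjusted p over all probe sets = 0.0289) and -1.43 ± 0.58 (adjusted p = 0.0648).

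Among the ligands the difference was -5.50 ± 1.10 for Bmp4 (adjusted p = 0.000319), 2.97 ± 0.57 for Bmp2 (adjusted p = 0.000195) and 1.43 ± 0.28 for Bmp7 (adjusted p = 0.000246). Without postnatal control arrays 4 and 5 these were -3.75, 2.90 and 0.98, the last below 2-fold and so no longer called. With all arrays, the other 2 probe sets of Bmp7 gave 1.88 ± 0.29 and 1.81 ± 0.30. The difference for Id4 was -1.23 ± 0.44 (adjusted p = 0.0308). That call was lost without embryonic transduced array 5 (-1.15), embryonic control array 1 (-1.10) or 4 (-1.15), or postnatal control array 1 (-0.90), and without postnatal control arrays 4 and 5 together (-1.17, adjusted p = 0.0512). With all arrays, the other 2 probe sets of Id4 gave -1.68 ± 0.42 and -1.67 ± 0.43 (adjusted p over all probe sets = 0.00273 and 0.00369).

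For Nog the difference was -2.37 ± 0.92 (adjusted p = 0.0455). That call was lost on leaving out any single array other than embryonic transduced array 5, embryonic control array 3, postnatal transformed arrays 2 and 3 and postnatal control array 2, with adjusted p between 0.0564 and 0.0926. It was also lost without postnatal control arrays 4 and 5 (-1.77, adjusted p = 0.156). Bmpr1a (0.17 ± 0.09, adjusted p = 0.157) and Id3 (0.63 ± 0.41, adjusted p = 0.264) were not called, and without arrays 4 and 5 the difference for Id3 became 1.34 ± 0.16 and was called (adjusted p = 4e-07).

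Within the postnatal controls, Bmp4, Id1 and Id3 were high on the 2 arrays that read low for cell cycle genes and high for the myelin sum, and Bmp7 was low there. Bmp4 was 20760 and 22945 on these arrays against 752 to 1442 on the other 3. Id1 was 13398 and 13553 against 3565 to 5341, and Id3 was 17874 and 16462 against 4162 to 5611. Bmp7 was 1390 and 1430 against 2542 to 3725. Nog was also higher on both (392 and 279 against 38.0 to 181), and Bmpr1a slightly so (14752 and 14925 against 12251 to 14004). Bmp2, Bmpr1b and Id4 on these arrays lay within the range of the other 3 control arrays, and Id2 was within it on array 4 and below it on array 5 (36423). In transformed cells, the 12 cell cycle genes had a mean log2 signal of 11.86 to 12.07, so these cells read as low as control arrays 4 and 5. Against all 5 controls 11 of the 12 were called lower, with a median change of -1.41. Without control arrays 4 and 5 all 12 were called lower, with a median of -2.44. The myelin sum of transformed cells, 27373 to 29653, was below that of all 5 controls. It was mostly Cnp, which averaged 27042 in transformed cells and 61131 in controls. Mbp averaged 1010 and 3521, and Mag 57.2 and 777. The part of these shifts in the changes of Bmp4, Bmp7, Nog, Id1 and Id3 was not tested. The values without the 2 arrays are no such test, since the cell cycle difference from the remaining controls was larger.

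**Figure D3:**
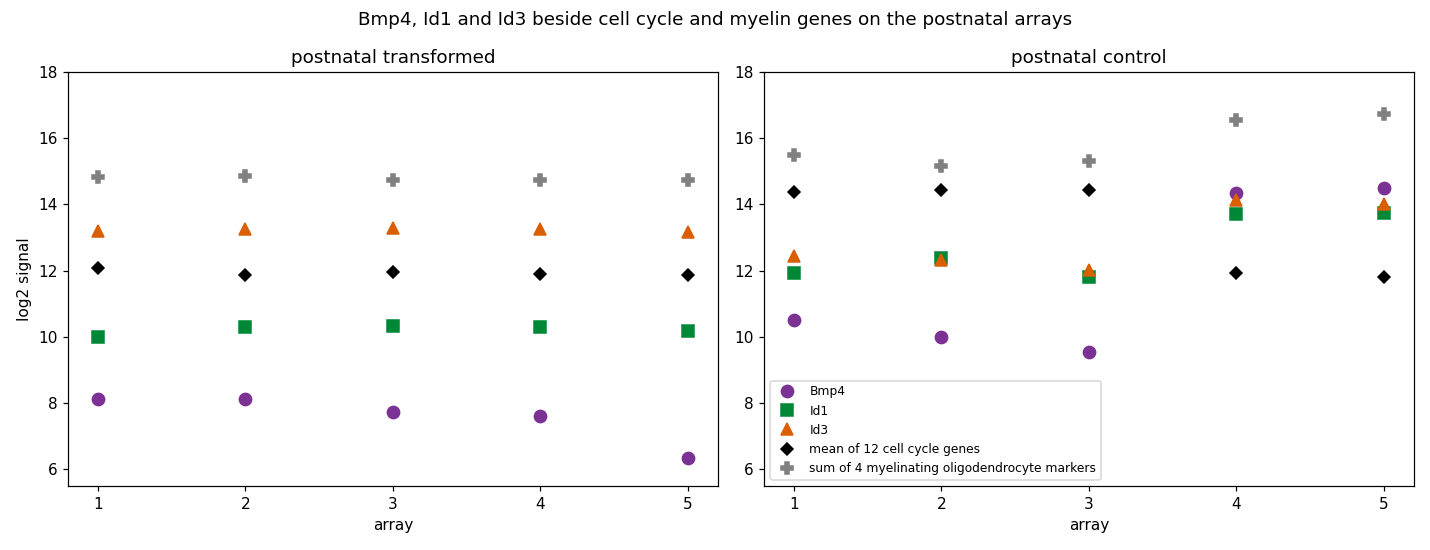
Log2 signal of Bmp4, Id1 and Id3 on each transformed (left) and control (right) postnatal array, with the mean of 12 cell cycle genes and the log2 of the summed signal of 4 myelinating oligodendrocyte markers. Each point is 1 array. On control arrays 4 and 5 the 3 genes and the myelin sum stand high and the cell cycle mean drops to 11.92 and 11.79, while on the transformed arrays the cell cycle mean is low and Bmp4 and Id1 are low too.

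The age comparisons set postnatal against embryonic cells. Between the controls, 2 of the 10 genes were called, both higher in postnatal cells, against 10.6% of all genes. Bmp4 was higher by 4.48 ± 0.78 (adjusted p = 0.00012), with means of 9384 ± 11411 in postnatal and 172 ± 98.9 in embryonic controls (SD, n = 5 each), and by 2.73 ± 0.50 without postnatal arrays 4 and 5 (adjusted p = 0.00022). The 5 postnatal arrays all exceeded the embryonic ones, of which 3 were above background. Id4 was higher by 1.38 ± 0.31, or 2.61-fold (adjusted p = 0.00159), although the lowest postnatal array overlapped the embryonic range.

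Id3 was lower in postnatal controls by 0.97 ± 0.29 (adjusted p = 0.0138), short of 2-fold, and it was called (-1.69 ± 0.12, adjusted p = 4.74e-10) without postnatal arrays 4 and 5. It was also called on leaving out postnatal control array 4 (-1.25) or 5 (-1.22), or embryonic control array 1 (-1.03) or 4 (-1.02). Id1 did not differ beyond the spread between the controls (0.16 ± 0.29, adjusted p = 0.729), and the value turned to -0.51 without postnatal arrays 4 and 5 (adjusted p = 0.0201). The Bmp7 value of -0.40 ± 0.20 (adjusted p = 0.141) likewise turned to 0.056. Over the 10 genes, 2 did not overlap between the controls, against 22.2% of all genes.

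Between the modified groups 5 of the 10 genes were called, 3 higher and 2 lower in transformed postnatal than in transduced embryonic cells, against 25.5% of all genes. Id2 was higher by 3.15 ± 0.11, or 8.87-fold (adjusted p = 3.84e-16), Bmp7 by 1.04 ± 0.20 (adjusted p = 0.00011) and Bmp2 by a fitted 3.45 ± 0.40 (adjusted p = 1.53e-07). Id1 was lower by 3.90 ± 0.29, or 14.9-fold (adjusted p = 1.24e-10), and Bmpr1b at least 4.64-fold lower (adjusted p = 1.82e-08). These 5 genes were also the ones whose groups did not overlap, against 46.6% of all genes. In the modified age comparison, age and the kind of modification (transduction or transformation) cannot be told apart.

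Beside the 10 genes, 52 others were measured, made up of genes of the pathway and 6 bHLH partners of the Id proteins. Of the 52, 11 were called in the embryonic response (21.2%, against 14.4% of all genes) and 9 in the postnatal response (17.3%, against 16% of all genes). The bHLH partners gave 2 of the embryonic calls and 1 of the postnatal calls. Of the other ligands 7 of 10 were measured, and 1 rose in the embryonic response (Bmp8b, mean 218 ± 133 in transduced cells, above background on 3 of 5 arrays, and 43.5 ± 13.7 in controls, on none). None was called in the postnatal response in limma, where 1 was lower at an unadjusted p under 0.05. Of the other receptors and co-receptors 8 of 9 were measured, with none called in the embryonic response (2 higher and 1 lower at an unadjusted p under 0.05) and 1 each way in the postnatal response. Acvrl1, a type I receptor best known from blood vessels, averaged 1025 ± 236 in transformed cells and 108 ± 63.4 in postnatal controls (adjusted p = 2.65e-05), and only 1 control array was above background. Acvr2b, an activin type II receptor that also binds BMPs, averaged 133 ± 114 in transformed cells, above background on 3 of 5 arrays, and 1048 ± 169 in controls (adjusted p = 3.12e-06). Bmpr2, the main type II receptor of the BMPs, averaged 27184 ± 1965 in transduced and 19436 ± 808 in control embryonic cells, and 15343 ± 986 in transformed and 20770 ± 4096 in control postnatal cells. Its changes of 0.48 ± 0.10 and -0.42 ± 0.10 were under 2-fold, and the postnatal one was -0.22 without control arrays 4 and 5.

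Of the 10 Smads and Smad regulators, all measured, 1 rose in the embryonic response and none was called in the postnatal response, where 2 were higher and 6 lower at an unadjusted p under 0.05. The riser was Smad7, an inhibitory Smad that is itself a target of the pathway, with signals of 2491, 1640, 1557, 1672 and 2110 in transduced cells, against 604, 712, 613, 406 and 575 in controls (1.67 ± 0.23, adjusted p = 3.64e-06). Its response differed between the ages by -2.23 ± 0.33 (adjusted p = 8.76e-06). Smad7 thus had the called direction of Id1 in the embryonic cells. Its postnatal change of -0.55 ± 0.23 was not called (adjusted p = 0.0603), and it was -0.33 without control arrays 4 and 5.

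Of the other BMP target genes 8 of 9 were measured, and 3 rose and none fell in the embryonic response (4 and 0 at an unadjusted p under 0.05). Hey1, a repressor of the Hairy family, had signals of 14095, 14281, 14933, 13247 and 17056 in transduced cells, against 2080, 3047, 2940, 2375 and 2933 in controls (2.46 ± 0.16, adjusted p = 2.97e-11). Msx1, a homeobox gene induced by BMPs in many tissues, rose by 1.89 ± 0.17 and Hes1, a Notch target that also responds to BMPs, by 1.07 ± 0.28. In the postnatal response 2 rose and none fell (2 and 1 at an unadjusted p under 0.05), Msx1 by 1.35 ± 0.17 and Hes1 by 1.43 ± 0.28. Msx1 and Hes1 therefore rose in the postnatal cells in which Id1 fell, and Hey1 was the only one of the 8 whose difference between the ages was called (-3.31 ± 0.22, adjusted p = 1.12e-10).

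Of the secreted and membrane antagonists and modulators 13 of 14 were measured, with 1 higher and 3 lower in the embryonic response and 2 each way in the postnatal response. Fst, which encodes the activin and BMP trap follistatin, averaged 1432 ± 231 in transduced embryonic cells and lay below background on all 5 controls, a difference of at least 7.82-fold (adjusted p = 1.02e-06). Bmper averaged 245 ± 72.9 in transduced cells, above background on 3 of 5 arrays, and 771 ± 35.5 in controls (adjusted p = 1.61e-07). Sostdc1, a secreted antagonist of the sclerostin family, averaged 168 ± 34.5 in transduced cells, above background on 2 of 5 arrays, and 448 ± 116 in controls (adjusted p = 0.045), and Tll1, a relative of Bmp1, was below background on all arrays of both groups. In the postnatal response Chrdl1, which encodes a chordin-like antagonist, rose by 1.47 ± 0.33 and Crim1, a transmembrane BMP-binding protein, by 1.01 ± 0.16. Chrdl1 had 437 and 367 on control arrays 4 and 5 against 1525 to 1874 on the other 3, and without these 2 arrays its change was 0.65 ± 0.14 (adjusted p = 0.00034), below 2-fold and so not called. Bmp1, a protease that cleaves chordin and is not itself a BMP, fell by 1.74 ± 0.15, and Bmper, a secreted BMP-binding regulator, fell by 1.06 ± 0.18.

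Of the bHLH partners of the Id proteins 6 of 7 were measured. Neurog2, a proneural factor, rose in both responses, with a mean of 814 in transduced and 256 in control embryonic cells (adjusted p = 0.000909) and at least 2.89-fold in transformed postnatal cells, whose controls were all below background. Tcf4, an E protein that dimerises with proneural factors, fell in the embryonic response by 1.07 ± 0.07 and was not called in the postnatal one. The median changes in the embryonic response were 0.93 for the 8 target genes, -0.66 for the bHLH partners, -0.26 for the antagonists and 0.02 for the Smads, against 0.08 over all genes. In the postnatal response they were 0.41, -0.19, 0.59 and -0.28, against -0.00. Without postnatal control arrays 4 and 5 the postnatal medians of the antagonists and the Smads were 0.34 and -0.10. In that setting 12 of the 52 genes were called (23.1%), against 3002 of all 18193 genes. Chrdl1 was lost, and Rgmb (1.08), Smad6 (1.27), Fst (1.69) and Dlx5 (2.05) were called higher. The sizes of the last 3 depend on the offset because they were dim in controls. They were dim in transformed cells as well. There Smad6, Fst and Dlx5 averaged 161, 154 and 277, above background on 3, 2 and 4 arrays.

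**Figure D4:**
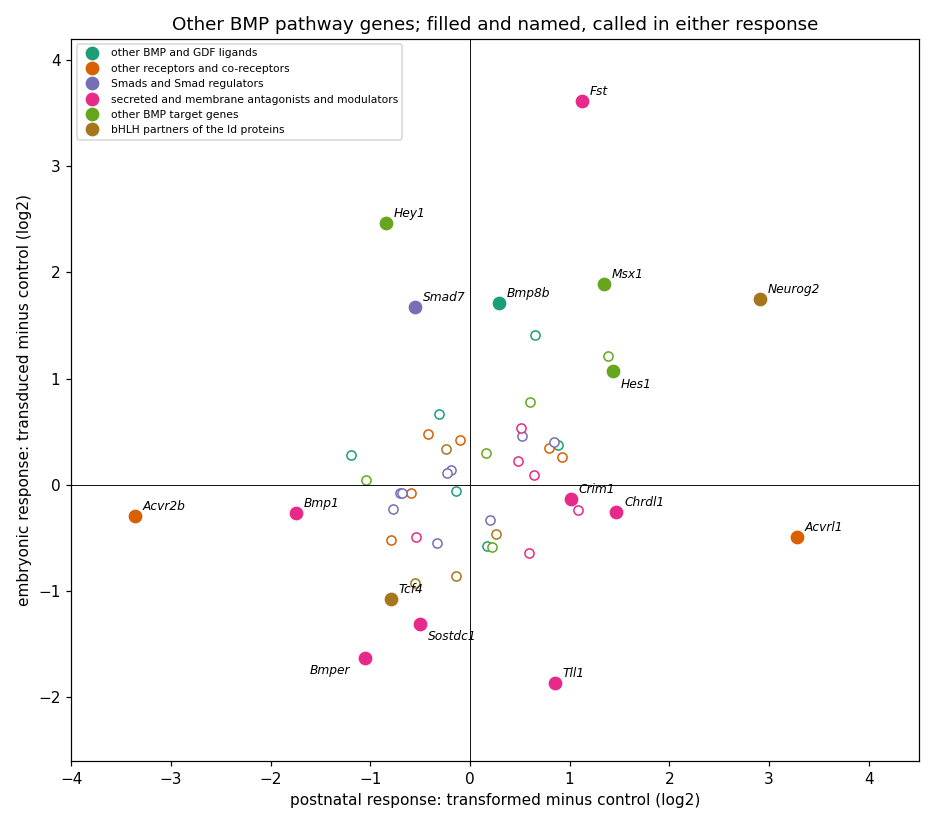
Other genes of the BMP pathway and bHLH partners of the Id proteins. The horizontal axis is the log2 change in transformed against control postnatal cells. The vertical axis is that in transduced against control embryonic cells. Each point is 1 gene, coloured by list, and named filled points were called in at least 1 of the 2 responses. Msx1, Hes1 and Neurog2 were called higher in both, and Hey1 and Smad7 were called higher only in the embryonic response.

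For each member called in a response, the 3 genes with the most similar profile over the 20 arrays were looked up among 10840 genes with a mean signal above 500. Likeness was the mean absolute difference of the log2 profiles after each was centred, so smaller is closer. For Id1 they were Pfkl (0.30), Hopx (0.34) and Tcf7l1 (0.43), against a mean absolute deviation of 1.23 for Id1 itself. For Id2 they were Ntrk3 (0.20), Cdh11 (0.22) and Adgrb3 (0.23), against 1.23. Cdh11, a cadherin, averaged 401 ± 69.6 in transduced and 5353 ± 722 in control embryonic cells, and 5212 ± 658 in transformed and 7331 ± 1425 in control postnatal cells.

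For Bmp7 the closest genes were Pcyt1b (0.16), Snx9 (0.19) and Itgav (0.21), against a deviation of 0.53. For Bmpr1b they were B3gnt5 (0.48), Slc4a4 (0.52) and Kcnc1 (0.56), against 1.71, and for Bmp2 they were Bscl2, Me1 and Negr1 (each 0.43), against 1.14. The Bmp4 profile had the least similar neighbours, Enpp6 (0.78), S100a6 (0.84) and Elmo1 (0.92), against 1.52. Enpp6, an enzyme of newly forming oligodendrocytes, had 719, 1085, 280, 7488 and 7412 in postnatal controls, and thus the same 2 high arrays as Bmp4. It averaged 169 ± 37.9 in transformed postnatal cells.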

How the data were processed

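Per array, the authors deposited 45101 probe set signals as linear intensities, for 20 arrays. How these intensities were background-corrected and normalized is not given in the sources used here. After trimming 2% from each end, the mean of every deposited array was 2500.01 or 2500.02, so no further scaling was applied. No detection flag was used. Groups came from the sample descriptions.

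The 64 control probe sets were set aside, and 34945 probe sets with 1 gene symbol in the platform annotation gave 18193 genes, each represented by its probe set with the highest mean log2 signal. Other probe sets of the 10 genes were fitted separately over all probe sets. The log2 scale used an offset of 16, which makes changes of dim genes look smaller. One linear model with a mean for each of 4 groups was fitted in limma 3.58.1 (lmFit, then eBayes with its trend option) under R 4.3.3. Tests were two-sided, and p-values were adjusted (Benjamini-Hochberg) across the 18193 genes. The 5 comparisons were the embryonic and the postnatal response, their difference as an interaction, and the age comparisons of controls and of modified cells.

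Where a group lay below background on all 5 arrays, the printed fold is a bound, computed on log2 means with the dim group's arrays raised to background where they lay below it. Where it was above background on 1 to 3 arrays, the fitted change depends on the offset. Precision is limited by the 5 arrays a group. The fit was tested on simulated data.

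The 10 genes, the pathway lists and most alternatives were chosen with earlier results of these data known. Named genes were all 10, up to 4 called genes with the smallest adjusted p per list, and the 3 closest profiles of each called member. Bmpr2, the cell type markers and the genes whose call changed without postnatal control arrays 4 and 5 were added after their values were seen. Promoter sequences were found for 6 of the 10 genes by RefSeq gene symbol (GRCm38.p6), and not for Bmp2, Bmp7, Nog and Id1. Those of Bmp4, Id2, Id3 and Id4 are shown with their matches, and those of Bmpr1a and Bmpr1b are not shown. Windows were searched with Python 3.11.15 and pandas 2.3.3, and plots used matplotlib 3.10.9. Same-numbered arrays of the 2 groups of an age had correlations of deviations between -0.12 and 0.12, so the numbers were not taken to pair arrays.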

Additional observations from a re-analysis of the deposited data

Results flagged for a closer look

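The response of 8 of the 10 genes was called different between the ages by the interaction test, against 19.1% of all 18193 genes. The difference was taken as the postnatal minus the embryonic log2 change. The difference was 2.97 for Bmp2, -5.50 for Bmp4, 1.43 for Bmp7, -3.20 for Bmpr1b, -2.37 for Nog, -4.06 for Id1, 2.84 for Id2 and -1.23 for Id4. Without postnatal control arrays 4 and 5 the calls of Bmp7, Nog and Id4 were lost, while Bmp2, Bmp4, Bmpr1b, Id1 and Id2 were still called. With each of the 20 arrays left out in turn, the call of Nog was lost 15 times and that of Id4 4 times. Age and the kind of modification cannot be told apart here.

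For Nog, transduced embryonic array 5 lay far below the other 4 arrays, with a signal of 50.9 against 202 to 322. Its gap to the nearest array was 0.729 of the group's range, above Dixon's critical value of 0.71 for 5 samples. It was the 1 outlier among 40 groups of 5 arrays tested over the 10 genes, where chance alone flags about 1 in 20. Without that array the modified age difference of Nog was called (-1.63, adjusted p = 0.0431).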

How the results depend on the processing

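The alternatives were offsets of 1 and 64, quantile normalization, centring on the 75th percentile, the mean of all probe sets, a filter on background, no fold threshold, no intensity trend, a replicate block, each array left out in turn, and postnatal control arrays 4 and 5 left out together, chosen from an earlier analysis of these data for the 10 genes and extended to the pathway lists after seeing the data. Dropping the fold threshold raised the calls by construction, to 5 of the 10 genes in the embryonic response and 5 in the control age comparison, and to 7162, 7692, 7083, 5830 and 9479 of all genes in the embryonic response, the postnatal response, their difference, the control and the modified age comparison. With single arrays left out, 3 to 4, 5, 6 to 8, 2 to 3 and 5 to 6 of the 10 genes were called in these comparisons. Of all genes, 2517 to 2636, 2786 to 2928, 3407 to 3551, 1603 to 2110 and 4539 to 4691 were called. With the replicate block 3, 5, 8, 2 and 5 of the 10 genes were called, as without it, and 2570, 2886, 3451, 1907 and 4640 of all genes. Values that turned sign were the postnatal change of Bmpr1a with the mean of all probe sets (0.19), the control age difference of Bmp7 (0.056) and of Id1 (-0.51) without arrays 4 and 5, and, with single arrays left out, the postnatal changes of Id4 (-0.71 to 0.0064) and Id3 (-0.00069 to 0.52) and the control age difference of Id1 (-0.090 to 0.39). None of these was called, and the cause was not tested. Under the settings other than single arrays left out, 478 values of single genes kept their direction and their side of the threshold, 12 gained a call, 7 lost one and 3 turned sign. The Nog difference also lost its call with quantile normalization (adjusted p = 0.076), 75th percentile centring (0.0568) and no intensity trend (0.0569), and that of Id4 with no intensity trend (0.053). The difference of Id2 was 1.68 with the mean of all probe sets. The share of higher calls over all genes was 60.0% in the embryonic response and 51.2% with quantile normalization, and 59.9% in the postnatal response and 48.0% with no fold threshold. The median of all genes in the modified age comparison was -0.14, and 0.00 with quantile normalization, which turned no sign among the 10 genes. Signals of Nog, of Bmp2 outside transformed cells and of Bmpr1b in transformed cells were near or below background, which limits the size of their changes.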

Other observations

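Between the ages, several antagonists of the pathway were lower in postnatal than in embryonic controls. Fstl1, a secreted follistatin-like protein, averaged 1372 ± 522 in postnatal and 11626 ± 632 in embryonic controls (-3.14 ± 0.16, limma adjusted p = 2.64e-12), and it was also lower in transformed postnatal than in transduced embryonic cells (-3.17 ± 0.16). Bambi, a receptor-like membrane protein without a kinase domain, was lower by 1.48 ± 0.16 and Crim1 by 1.45 ± 0.16. Of the 13 measured antagonists and modulators, 4 were lower and 0 higher between the controls in limma (6 and 1 at an unadjusted p under 0.05), beside 10.6% of all genes called. Hes1 averaged 932 ± 413 in postnatal and 6032 ± 2734 in embryonic controls (-2.65 ± 0.28, adjusted p = 2.14e-07), and the co-receptor gene Rgmb 637 ± 107 and 1769 ± 114 (-1.46 ± 0.14, adjusted p = 3.87e-08). Without postnatal control arrays 4 and 5 the control age differences were -2.97 for Fstl1, -1.19 for Bambi, -1.66 for Crim1, -2.24 for Hes1 and -1.62 for Rgmb, and all 5 were still called.

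Between the modified groups, Hey1 (-3.18 ± 0.16), Hes1 (-2.29 ± 0.28) and Smad7 (-1.90 ± 0.23) were lower in transformed postnatal than in transduced embryonic cells, as Id1 was. Unlike Id1 (0.16 ± 0.29), Hes1 was also lower between the controls. Of the 8 measured target genes 2 were called lower and 0 higher between the modified groups, and of the 10 Smads and Smad regulators 1 and 0. Fst averaged 154 ± 67.9 in transformed and 1432 ± 231 in transduced cells, and Chrdl1 was higher in transformed cells by 1.27 ± 0.33. All 12 cell cycle genes were lower in transformed cells (median -2.55), beside 25.5% of all genes called.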
